A study of Mus musculus with 24 samples.

Results

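The genes described here are 42 genes of hepatic stellate cells and of the extracellular matrix of the liver. They were chosen by name, with earlier results of these data known. The set holds 6 fibrillar or fibril-associated collagen chains, 3 chains of collagen VI, 6 basement membrane genes, 7 proteoglycans and matricellular proteins, 7 genes of collagen cross-linking and matrix turnover, 4 cytoskeletal genes, 6 growth factors and receptors, and 3 genes of quiescent stellate cells. Of the 42, 41 had a row among the 13686 genes of the count table, and 40 were among the 11971 genes that passed the filter on low counts. Timp1, an inhibitor of matrix metalloproteinases, is not analysed here, and Lox, the lysyl oxidase that starts collagen cross-linking, had a row but did not pass the filter.

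The study asked how a diet enriched in cottonseed oil compares with other high-fat diets in mouse liver. All animals were male WT mice of the strain C57BL/6, kept for 6 weeks on 1 of 4 diets. These were chow and diets enriched in cottonseed oil (CSO), in olive oil (OO) and in safflower oil (SFO). There were 6 libraries each of chow, CSO and OO and 5 of SFO, since the submitters left out the library SFO 4 as an outlier with possible contamination. The labels give neither the age of the mice nor the rest of each diet's composition, so a difference from chow is one between whole diets. They call the samples of a diet separate samples without saying whether each is 1 animal, so a p-value sets a difference against a spread that may be in part technical.

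Hepatic stellate cells lie between the hepatocytes and the sinusoidal endothelium, where in their quiescent state they store vitamin A as retinyl esters. In injury they can become myofibroblast-like, lose their retinoid stores, and deposit fibrillar collagen under the influence of TGF-beta and PDGF. The healthy liver has little fibrillar collagen and, along its sinusoids, only a thin, discontinuous matrix that includes collagen IV, laminin and perlecan, so these transcripts are a small part of the RNA of a whole liver.

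Library totals ranged from 5.43e+06 to 1.49e+07 counts, and 1 CPM (the count scaled to a common library size, with the library's composition factor) stood for 5.28 to 16.4 counts. The 41 genes together took 0.0655% to 0.147% of a library's counts. Every library carried the hepatocyte transcript Alb, at 79221 to 144458 CPM. Library OO 3 had the lowest composition factor (0.811, against 0.889 to 1.11 in the others), and OO 1 and OO 2 came next, both at 0.889. These and OO 4 (0.943) and OO 6 (0.974) were below the lowest chow library (0.996), and OO 5 was at 1.03. CSO 5, SFO 1 and SFO 6 were below it too (0.967, 0.974 and 0.973). The scaling thus differed between OO and chow. Skeletal muscle transcripts stood out in the libraries chow 3, chow 4, chow 5 and CSO 1, in which Acta1, the skeletal muscle actin, was at 461, 887, 186 and 314 CPM. Values below are CPM of 3′ end reads, not divided by gene length. A level can be compared between diets, and a difference in CPM between genes was not taken as one in transcript number. In whole tissue, fewer cells of a type and less RNA per cell cannot be told apart.

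Across the 4 diets the values of most of these genes overlapped. In 7 comparisons of 40 genes, edgeR's quasi-likelihood test, adjusted over all 11971 genes, called 2 differences, and neither of them was against chow. The calls were 1 of 40 in CSO against OO, with 1.09% of all genes called, and 1 of 40 in SFO against OO, with 1.06%. Of all genes, few were called against chow too: 0.409% in CSO, 2.64% in OO, 0.835% in SFO and 1.12% in the mean of the oils. CSO against SFO had 0.493%. Ccn1, a matricellular protein that binds integrins, was lower in CSO than in OO livers, by 2.49 ± 0.56 (SE) on the log2 scale. Col4a2, a chain of basement membrane collagen IV, was higher in SFO than in OO livers, by 1.82 ± 0.44. The heat map of the 40 genes shows how far single libraries depart from their group.

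**Figure D1:**
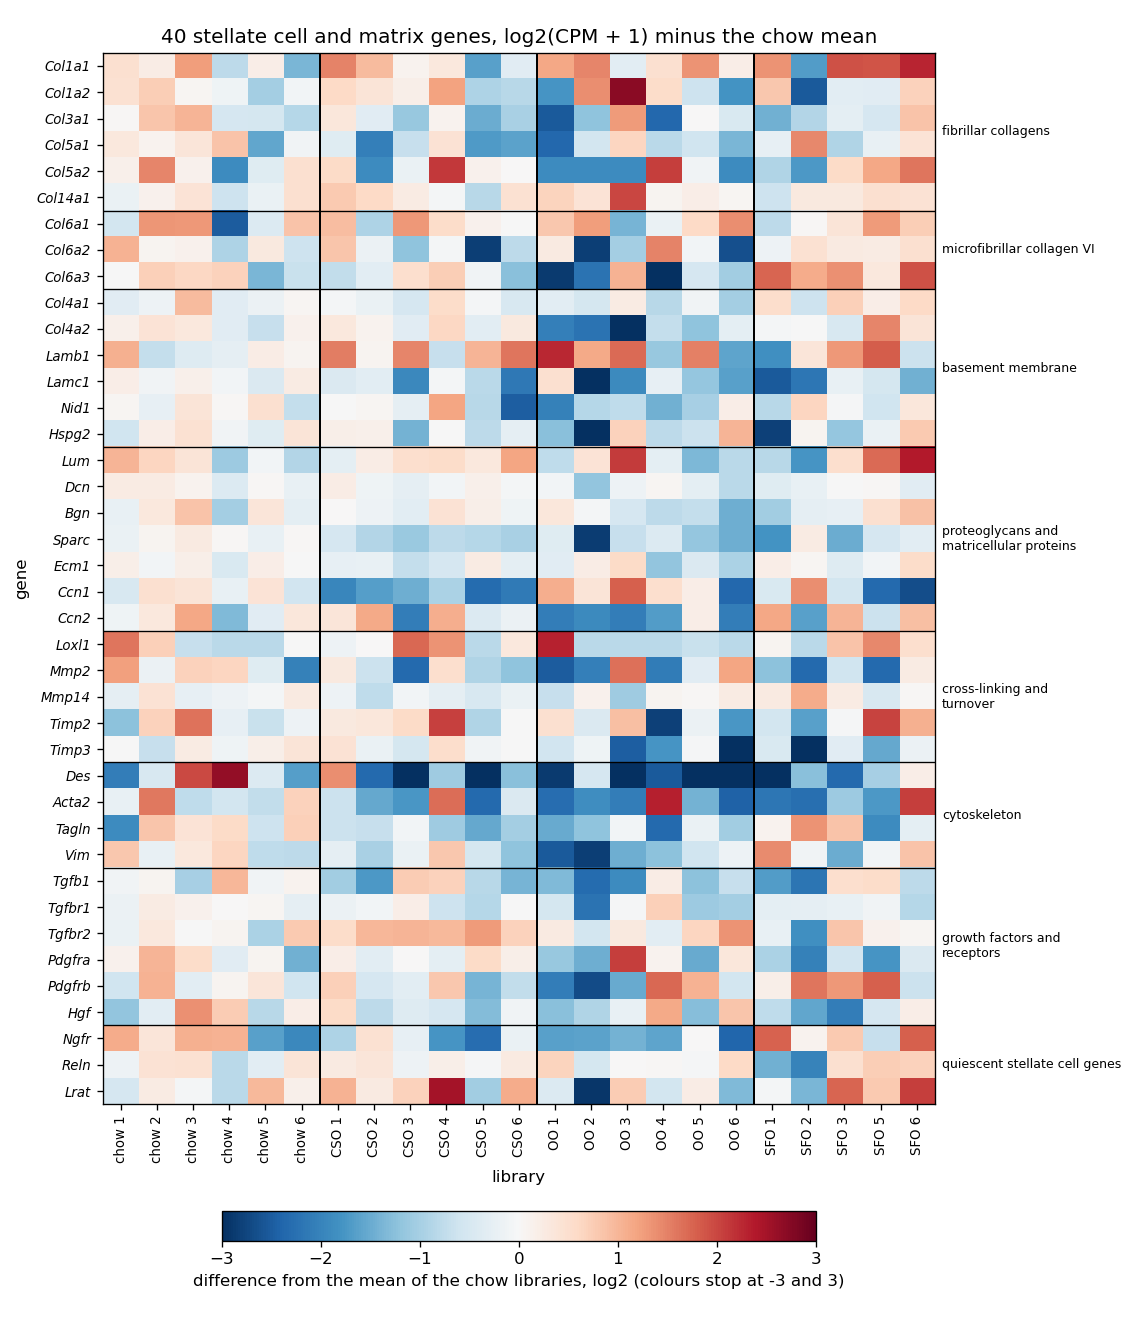
Each row is 1 of 40 genes, ordered by role, and each column 1 of 23 libraries, grouped by diet; colour gives log2(CPM + 1) minus the mean of the chow libraries, red above and blue below. The CSO columns are blue throughout in the rows of Ccn1 and Sparc, the OO columns are blue throughout in the row of Col4a2, and neighbouring libraries of 1 diet often have opposite colours.

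Ccn1 (also CYR61) is a secreted protein that many cell types make within minutes to hours of mechanical or growth factor stimulation, and it is a standard target of the YAP and TEAD transcription factors. The 250 bases before its RefSeq start (GRCm38.p6, chr3:145649986-145650235, minus strand) are shown because Ccn1 carries 1 of the 2 calls. Capitals mark a CATTCC, the core letters of the TEAD motif, at 103 to 98 bases before the start, and a TATAAA at 25 to 20 bases before it.
Ccn1: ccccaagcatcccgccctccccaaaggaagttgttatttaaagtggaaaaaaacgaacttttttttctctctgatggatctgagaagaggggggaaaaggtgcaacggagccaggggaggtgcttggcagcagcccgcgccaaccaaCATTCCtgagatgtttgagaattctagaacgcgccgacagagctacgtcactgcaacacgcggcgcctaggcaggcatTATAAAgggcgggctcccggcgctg
CATTCC, or on the other strand GGAATG, occurred in 12.6% of 32851 RefSeq windows of 250 bases before a start, and in those of 7 of the 30 genes of this set that had a window: Acta2, Ccn1, Col3a1, Col6a2, Lrat, Nid1 and Timp1. TATAAA, or on the other strand TTTATA, occurred in 12.4% of the windows and in those of 4 of the 30 genes, namely Ccn1, Col3a1, Ecm1 and Vim. The percentages count windows, while a gene of the set counts once if any of its windows has the letters. The shares are therefore not alike. The counts of the deposited table were made on another build (mm39), so only gene symbols were matched to these windows.

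In chow livers Ccn1 was at 17.7 to 38.0 CPM with a median of 29.3, and in CSO livers at 4.67 to 13.6 CPM with a median of 7.10. No CSO library reached the lowest chow library. In OO livers it was at 4.42 to 95.1 CPM with a median of 37.2. Of these 6 libraries, 5 were at or above 31.3 CPM and OO 6 was at 4.42 CPM, below every CSO library. In SFO livers it was at 19.2, 72.9, 18.2, 4.54 and 3.41 CPM in libraries 1, 2, 3, 5 and 6. The SFO libraries thus span the ranges of chow and CSO, and 2 of the 5 were below every CSO library.

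The means were 28.2 ± 9.27 (SD, n = 6) in chow, 7.83 ± 3.25 (n = 6) in CSO, 44.0 ± 30.5 (n = 6) in OO and 23.6 ± 28.5 (n = 5) in SFO. Against OO, CSO was lower (adjusted p = 0.0177, edgeR quasi-likelihood). Against chow the estimate for CSO was -1.85 ± 0.55 on the log2 scale (adjusted p = 0.203) and against SFO -1.60 ± 0.57 (adjusted p = 0.344). The latter was -0.55 without SFO 2, the highest SFO library, and -0.75 with limma voom. The call against OO was lost without library CSO 1, CSO 5 or CSO 6 (adjusted p = 0.0549, 0.0537 and 0.0587) and without the 4 libraries with muscle transcripts (log2 difference -2.44, adjusted p = 0.1002). Leaving out those 4 libraries also cut the calls over all genes, from 130 to 40 in CSO against OO. In SFO against OO these calls went from 127 to 37. Against chow they went from 316 to 26 in OO and from 100 to 34 in SFO. The authors' deposited table for CSO against chow, made with their own test, gives Ccn1 a log2 fold change of -1.86 (SE 0.553) and an adjusted p of 0.0475.

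**Figure D2:**
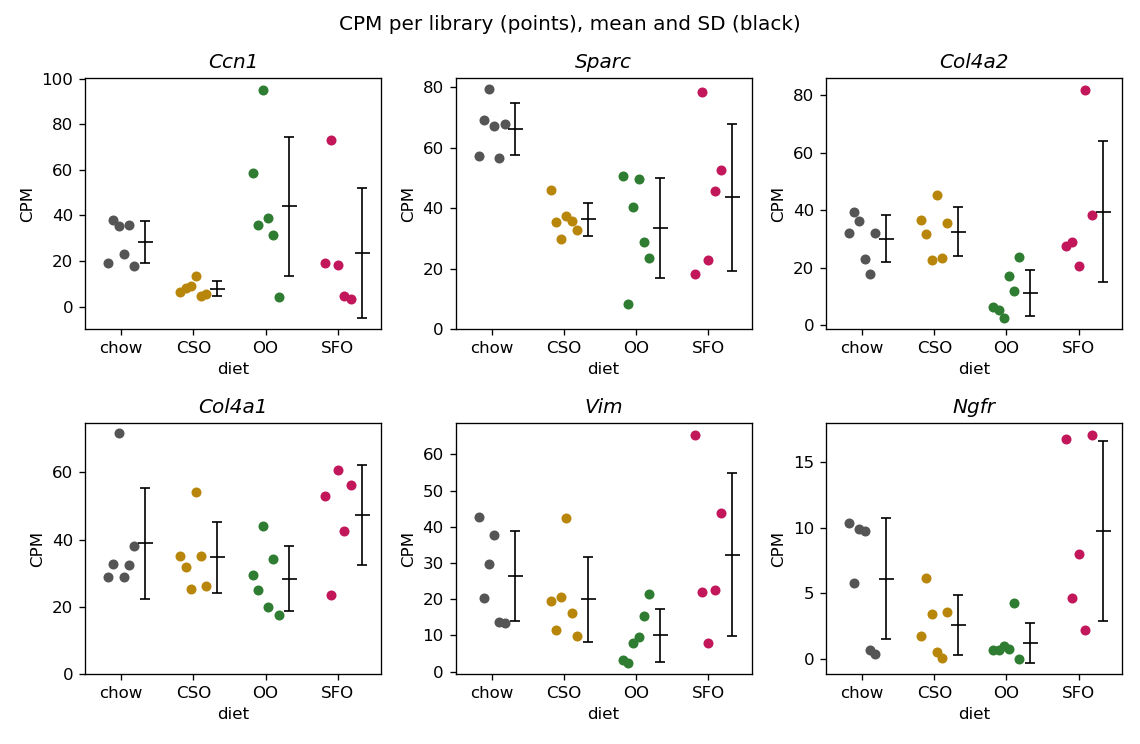
CPM (vertical axis, linear) of 6 genes in each library (points) by diet, with the mean and SD over libraries in black. Ccn1 in CSO lies below all chow libraries, Sparc in CSO and OO lies below all chow libraries, and the points of Col4a2, Col4a1, Vim and Ngfr overlap between every pair of diets.

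Sparc, a collagen-binding matricellular protein, was chosen after its values were seen, because its diets separated. It was at 56.7 to 79.4 CPM in chow, with a median of 67.5, and at 29.7 to 46.2 CPM in CSO, with a median of 35.7. In OO livers it was at 8.29 to 50.6 CPM, with a median of 34.6, and in SFO livers at 18.1, 78.5, 22.9, 45.8 and 52.7 CPM in libraries 1, 2, 3, 5 and 6. Every CSO and every OO library was below every chow library, while SFO 2 stood within the chow range.

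By edgeR, the estimates for Sparc were -0.87 ± 0.34 for CSO against chow (adjusted p = 0.574), -0.98 ± 0.34 for OO against chow (adjusted p = 0.0967) and -0.82 ± 0.26 for the mean of the oils against chow (adjusted p = 0.141). None passed the threshold. With limma voom and sample quality weights, Sparc was called in CSO against chow (adjusted p = 0.0393) and in the mean of the oils (0.00364). Without the 4 libraries with muscle transcripts the estimates were about as large, at -0.92 ± 0.45 for CSO and -0.95 for OO, and neither was called.

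Counted over the 40 tested genes, 2 had chow and CSO libraries that did not overlap (Ccn1 and Sparc), against 1.44% of all tested genes. Chow and OO did not overlap for 1 gene (Sparc), against 1.75%. CSO and SFO did not overlap for 1 gene, against 1.70%: Pdgfra, a PDGF receptor of stellate cells and fibroblasts, was at 4.67 to 9.48 CPM in CSO and at 2.65, 0.718, 3.73, 1.06 and 4.17 CPM in the SFO libraries 1, 2, 3, 5 and 6. Its log2 difference of CSO against SFO was 1.40 ± 0.85 and was not called (adjusted p = 0.792, edgeR). No gene of the set separated chow from SFO (1.59% of all genes), CSO from OO (1.44%) or OO from SFO (1.11%).

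The other proteoglycans and matricellular genes were Dcn, Bgn, Lum, Ecm1 and Ccn2. Dcn (decorin), a small proteoglycan that binds collagen fibrils and TGF-beta, was at 121 to 193 CPM in chow (median 171), 134 to 190.2 in CSO (median 153), 70.4 to 168 in OO (median 139) and 126 to 167 in SFO. These ranges overlapped throughout, and no comparison of Dcn had an unadjusted p under 0.05. Bgn (biglycan) ranged from 27.4 to 145 CPM, Ecm1, a secreted matrix protein, from 59.2 to 202 CPM and Lum (lumican) from 0.239 to 20.8 CPM over all libraries.

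Ccn2 (also CTGF), a relative of Ccn1 that promotes matrix production, was named after its values were seen. It was at 0.672 to 8.30 CPM in chow and at 0 to 8.22 CPM in CSO. In OO livers, 3 of 6 libraries had 0 counts and the highest, OO 5, was at 3.80 CPM. The 5 SFO values were 8.33, 0.359, 7.47, 1.69 and 6.82 CPM. The estimates were 2.78 ± 1.27 for SFO against OO (adjusted p = 0.278, edgeR) and 2.56 ± 1.23 for CSO against OO (adjusted p = 0.318), and both were called once OO 5 was left out (5.58 and 5.37, adjusted p = 0.0327 and 0.0377). Ccn1 and Ccn2 did not share an order: OO had the highest median of Ccn1 and the lowest of Ccn2.

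Collagen IV is a basement membrane collagen whose most common form joins chains made by Col4a1 and Col4a2. The 2 genes lie head to head and share a promoter. Their RefSeq starts are shown because 1 of the pair carries a call. On GRCm38.p6, the 30 bases at chr8:11312801-11312830 (plus strand) hold in capitals the 22 bases from the start of Col4a2, at 11312805 and read to the right, to that of Col4a1, at 11312826 and read to the left.
Col4a1-Col4a2: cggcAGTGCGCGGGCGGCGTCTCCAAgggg
By these starts the 22 bases are the first bases of both genes, on opposite strands, and do not lie between them. Around the 2 starts, the RefSeq promoter windows of the genes have 78 bases in common.

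Col4a2 was at 17.8 to 39.3 CPM in chow (median 32.1) and at 22.9 to 45.3 CPM in CSO (median 33.7). In OO livers it was at 2.63 to 23.6 CPM (median 9.10), and in SFO livers at 27.7, 28.95, 20.7, 81.9 and 38.3 CPM in libraries 1, 2, 3, 5 and 6. The OO libraries 1, 2, 3, 4 and 5 were below every library of the other diets, and OO 6 was within their ranges.

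The means of Col4a2 were 30.1 ± 8.19 (SD, n = 6) in chow, 32.6 ± 8.62 (n = 6) in CSO, 11.2 ± 8.03 (n = 6) in OO and 39.5 ± 24.5 (n = 5) in SFO. SFO was higher than OO (log2 difference 1.82 ± 0.44, adjusted p = 0.0284, edgeR). The other comparisons with OO were just outside the threshold, at -1.42 ± 0.42 for OO against chow (adjusted p = 0.0505) and 1.54 ± 0.42 for CSO against OO (adjusted p = 0.0515). These 3 comparisons share the OO libraries. The SFO call was lost without SFO 5, the highest library (1.37, adjusted p = 0.140), without OO 2 (1.69, adjusted p = 0.0511), with only the 2 diets in the fit (1.84, adjusted p = 0.310) and without chow 3, 4 and 5 and CSO 1, which carried muscle transcripts (1.83, adjusted p = 0.0645). The difference between OO and chow was called without OO 4 and without OO 6. The authors' deposited table for OO against chow gives Col4a2 a log2 fold change of -1.44 (SE 0.410) and an adjusted p of 0.0160.

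Col4a1 was at 28.8 to 71.8 CPM in chow (median 32.7), 25.4 to 54.3 in CSO (median 33.5) and 17.7 to 44.0 in OO (median 27.2). SFO livers had 53.0, 23.6, 60.7, 42.5 and 56.3 CPM. Its OO libraries overlapped those of every other diet, and SFO against OO gave 0.73 ± 0.34 (adjusted p = 0.287, edgeR). Within a library, the ratio of Col4a2 to Col4a1 reads was 0.506 to 1.19 in chow and 0.661 to 1.36 in CSO. It was 0.212, 0.218, 0.0597, 0.856, 0.349 and 1.34 in the OO libraries 1 to 6, and 0.523, 1.23, 0.340, 1.93 and 0.680 in SFO. The ratio was thus below the lowest chow value in 4 of the 6 OO libraries and inside or above the chow range in OO 4 and OO 6. Whether the ratio differed between diets was not tested.

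Of the other basement membrane genes, Lamc1, the laminin gamma 1 chain, was named after its values were seen. It was at 19.7 to 32.4 CPM in chow, 5.35 to 26.0 in CSO, 0.829 to 38.2 in OO and 3.92, 5.26, 22.9, 18.4 and 9.29 in SFO. The chow libraries were close together while the oil diets spread widely, and SFO against chow gave -1.19 ± 0.59 (adjusted p = 0.639, edgeR). The mean of the oils against chow gave -0.97 ± 0.43 (adjusted p = 0.454). Lamb1, the laminin beta 1 chain, ranged from 0.588 to 26.3 CPM, Nid1, the nidogen that links laminin to collagen IV, from 1.21 to 26.6 CPM, and Hspg2 (perlecan), a heparan sulfate proteoglycan, from 2.37 to 60.3 CPM. None of these 3 had an unadjusted p under 0.05 in any comparison. The median log2 difference of the 6 basement membrane genes between OO and chow was -0.68, with 5 of 6 below 0.

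Fibrillar collagen, the material of scar, gave no call in any comparison. Col1a1, a chain of type I collagen, was at 2.16 to 18.3 CPM in chow (median 8.41), 1.63 to 21.8 in CSO (median 8.42) and 5.54 to 21.3 in OO (median 13.7). The SFO libraries were at 19.6, 1.56, 29.3, 28.8 and 38.7 CPM. Thus 4 of 5 SFO libraries were above every chow library, and SFO 2 was below all of them. SFO against chow gave 1.46 ± 0.63 (adjusted p = 0.511, edgeR). The partner chain Col1a2, named as such, did not show this order: its SFO median was 12.9 CPM against 16.3 in chow, and its highest library was OO 3 at 113 CPM.

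Col14a1, a fibril-associated collagen, was at 24.6 to 54.1 CPM in chow (median 37.7), 21.2 to 67.1 in CSO (median 49.3) and 40.3 to 158 in OO (median 48.0). In SFO livers it was at 24.6, 47.4, 47.7, 53.8 and 52.7 CPM. All diets overlapped, and the OO mean rests largely on OO 3 at 158 CPM. OO against chow gave 0.73 ± 0.32 (adjusted p = 0.238, edgeR), and 0.26 without that library. Col3a1, the type III collagen chain, ranged from 6.95 to 109 CPM, Col5a1 from 2.92 to 52.9 CPM and Col5a2, the other type V chain, from 0 to 14.9 CPM with 0 counts in 4 of 6 OO libraries. The 6 genes had a median log2 difference from chow of 0.22 in CSO, 0.18 in OO and 0.18 in SFO.

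The 3 chains of collagen VI, which forms beaded microfibrils around cells, did not share an order. Col6a3 was at 2.73 to 14.8 CPM in chow (median 11.1), 2.997 to 14.9 in CSO (median 7.26) and 0.107 to 18.8 in OO (median 2.35). The 5 SFO values were 31.4, 19.9, 23.7, 10.98 and 35.3 CPM. Here 4 of 5 SFO libraries were above every library of the other diets, and SFO 5 was within their ranges. SFO against OO gave 2.29 ± 0.75 (adjusted p = 0.113, edgeR) and CSO against SFO -1.55 ± 0.74 (adjusted p = 0.617). SFO against OO was called once OO 3, the highest OO library, was left out (3.47, adjusted p = 0.0267). Col6a1 ranged from 0.122 to 15.5 CPM and Col6a2 from 0 to 18.9 CPM, neither with an unadjusted p under 0.05.

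Among the enzymes of cross-linking and turnover, Mmp14, a membrane-bound collagenase that also activates Mmp2, was at 42.5 to 69.6 CPM in chow (median 47.8), 29.9 to 48.7 in CSO (median 43.3) and 24.1 to 61.1 in OO (median 53.4). SFO livers had 62.1, 112, 60.7, 36.6 and 52.3 CPM. The ranges of all diets overlapped, and CSO against SFO gave -0.65 ± 0.30 (adjusted p = 0.573, edgeR), and -0.37 without SFO 2. Mmp2, gelatinase A, ranged from 0 to 16.7 CPM. Its inhibitors Timp2 and Timp3 ranged from 0.854 to 53.1 and from 0.650 to 34.1 CPM, and Loxl1, a lysyl oxidase of elastic fibres, from 0 to 7.76 CPM. None of these 4 had an unadjusted p under 0.05.

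Lox itself, outside the tests, summed to 31 counts in chow, 41 in CSO, 0 in OO and 28 in SFO. Against a floor of 3 counts over the OO group it was at least 8.45-fold higher in chow, 10.5-fold in CSO and 10.9-fold in SFO. However, 1 library in each of these groups held nearly all its counts, namely chow 2 with 29, CSO 4 with 40 and SFO 6 with 24, and Lox was at 0 counts in most libraries of chow, CSO and SFO as well.

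The cytoskeletal genes mark stellate cells, activated stellate cells and vascular muscle. Vim (vimentin), an intermediate filament of mesenchymal cells, was at 13.5 to 42.8 CPM in chow (median 25.1), 9.78 to 42.3 in CSO (median 17.8) and 2.49 to 21.4 in OO (median 8.82). The SFO libraries were at 65.4, 22.0, 7.92, 22.6 and 43.8 CPM. OO held the lowest libraries, and its upper end overlapped all other diets. SFO against OO gave 1.69 ± 0.52 (adjusted p = 0.0907, edgeR; 0.0388 with DESeq2) and OO against chow -1.39 ± 0.50 (adjusted p = 0.117).

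Des (desmin), an intermediate filament of rodent stellate cells and of all muscle, was chosen after its values were seen. The reason was that its 3 highest values were in libraries where skeletal muscle transcripts stood out. In chow 5, the other such library, Des was at 16.1 CPM, below SFO 6 at 25.2 CPM. It was at 4.37, 15.5, 88.8, 142, 16.1 and 6.28 CPM in chow 1 to 6, at 58.7 CPM in CSO 1 and 0.365 to 9.89 in the other CSO libraries, at 0 to 15.2 in OO and at 0 to 25.2 in SFO. The 15 skeletal muscle markers summed to 2401, 4490 and 1047 CPM in chow 3, 4 and 5 and to 2101 CPM in CSO 1, against 172 CPM or less in every other library. OO against chow gave -3.67 ± 1.40 (adjusted p = 0.176, edgeR; 0.0483 with DESeq2), and -1.29 ± 1.22 (adjusted p = 0.815) without these 4 libraries. The mean of the oils against chow gave -2.56 ± 0.95 (adjusted p = 0.316), and -0.68 without them. Of the 14 skeletal muscle markers tested, 11 fell in OO against chow, where 2.64% of all genes were called in either direction. Without these 4 libraries the 11 estimates were still -2.60 to -5.11, and none was called (adjusted p = 0.270 to 0.712, edgeR). The libraries were set aside by Acta1, itself 1 of the 11, so the lost calls are no test of the markers. The authors' deposited table lists Des for OO against chow at -3.68 (SE 1.23, adjusted p = 0.0497).

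**Figure D3:**
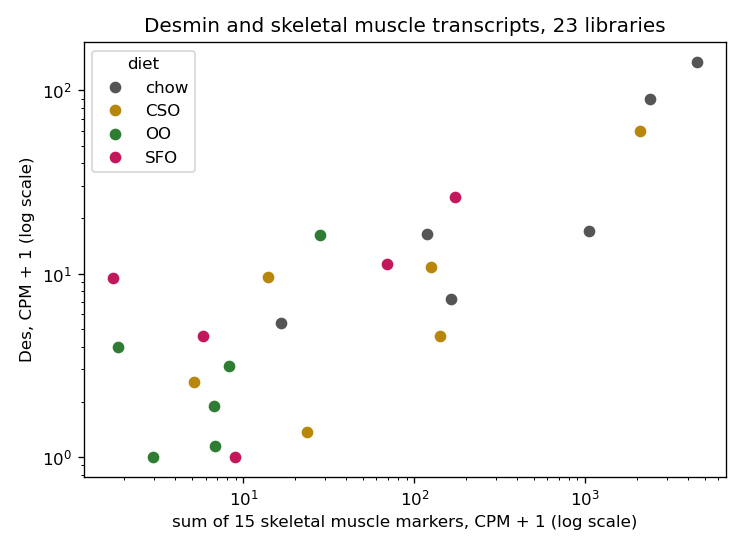
Each point is 1 of 23 libraries: the horizontal axis is the summed CPM + 1 of 15 skeletal muscle markers and the vertical axis the CPM + 1 of Des, both on log scales, coloured by diet. The 3 highest points of Des, at 142, 88.8 and 58.7 CPM, are chow 4, chow 3 and CSO 1, which also have the highest sums of muscle markers.

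Acta2, the smooth muscle actin used as a marker of activated stellate cells, was at 2.17 to 15.2 CPM in chow, 0.0741 to 16.1 in CSO, 0 to 26.0 in OO and 0.120 to 21.6 in SFO. In each diet 1 library stood above the rest, namely chow 2, CSO 4, OO 4 and SFO 6. Tagln (SM22 alpha), another contractile gene, ranged from 0.427 to 17.2 CPM. Neither had an unadjusted p under 0.05. Of the markers of vascular smooth muscle, Cnn1 was at 0 in 20 of the 23 libraries, Myh11 at 0 to 15.2 CPM, Tpm2 at 0.588 to 257 CPM and Mylk, a myosin kinase, at 61.1 to 330 CPM. The 8 markers of that list with a row summed to 137 to 408 CPM in chow, 143 to 309 in CSO, 64.6 to 342 in OO and 125 to 178 in SFO. Its members Synpo2 and Tpm2, which skeletal muscle also expresses, fell in OO against chow (-7.24 ± 1.95 and -4.21 ± 1.03), and gave -6.70 ± 2.19 and -1.04 ± 0.84 (adjusted p = 0.222 and 0.776, edgeR) without the 4 libraries with muscle transcripts.

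Of the growth factors and receptors, Tgfbr1 and Tgfbr2 form the TGF-beta receptor. Tgfbr2, the ligand-binding chain, was at 10.2 to 36.0 CPM in chow (median 21.1), 30.6 to 51.3 in CSO (median 41.4) and 13.6 to 54.2 in OO (median 25.1). In SFO livers it was at 17.5, 5.03, 37.2, 22.5 and 21.6 CPM. CSO had the highest median and overlapped each other diet. CSO against chow gave 0.87 ± 0.40 (adjusted p = 0.851, edgeR) and CSO against SFO 0.95 ± 0.42 (adjusted p = 0.538).

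Tgfbr1, the signalling chain, was at 44.1 to 63.7 CPM in chow (median 54.7), 29.3 to 61.1 in CSO (median 48.9) and 10.8 to 88.2 in OO (median 31.4). The 5 SFO values were 43.0, 44.3, 45.4, 49.5 and 28.8 CPM. The OO libraries held both its lowest and its highest value, and no comparison had an unadjusted p under 0.05. The ligand Tgfb1 ranged from 0.474 to 13.6 CPM. Pdgfrb, the PDGF receptor most used to mark stellate cells, ranged from 0.118 to 23.8 CPM, and Hgf, the hepatocyte growth factor that stellate cells secrete, from 0.546 to 15.7 CPM. None of these 3 had an unadjusted p under 0.05 either.

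The genes of quiescent stellate cells were Reln, Ngfr and Lrat. Reln (reelin), a secreted glycoprotein, was at 28.5 to 69.9 CPM in chow (median 55.5), 45.4 to 64.7 in CSO (median 58.7) and 34.4 to 80.2 in OO (median 51.3). SFO livers had 18.04, 11.7, 70.8, 85.2 and 81.3 CPM. The SFO libraries split into 2 below every library of the other diets and 3 above every chow library, and no comparison of Reln had an unadjusted p under 0.05.

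Ngfr (p75), a neurotrophin receptor of stellate cells and nerve, was at 0.375 to 10.3 CPM in chow (median 7.73), 0.0741 to 6.14 in CSO (median 2.58) and 0 to 4.24 in OO (median 0.729). The SFO libraries were at 16.8, 4.67, 8.01, 2.22 and 17.1 CPM. In OO 5 of 6 libraries were below 1 CPM, against 2 of 6 in chow. SFO against OO gave 2.97 ± 1.07 (adjusted p = 0.155, edgeR; 0.0444 with DESeq2) and OO against chow -2.30 ± 1.02 (adjusted p = 0.239).

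Lrat, the enzyme that makes the retinyl esters stored in stellate cells, was named after its values were seen. It was at 4.34 to 17.2 CPM in chow (median 8.69), 3.56 to 51.8 in CSO (median 16.1) and 0.237 to 14.8 in OO (median 5.69). In SFO livers it was at 8.04, 2.63, 30.5, 14.995 and 38.7 CPM. CSO and SFO held the highest libraries, and every pair of diets overlapped. CSO against OO gave 1.58 ± 0.66 (adjusted p = 0.222, edgeR), or 1.003 without CSO 4, and SFO against OO 1.54 ± 0.68 (adjusted p = 0.259).

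As a list, the 40 tested genes held no edgeR call against chow. In CSO against chow, edgeR called 0 of 40, against 0.409% of all genes. At an unadjusted p under 0.05 there were 1 higher (Tgfbr2) and 2 lower (Ccn1, Sparc), against 5.32%. DESeq2 gave an adjusted p to 3 of the 40 and called 0 (4.52% of the 2456 genes it gave one), and limma voom with quality weights called Ccn1 and Sparc lower (1.72%). The median log2 difference of the 40 genes was -0.17, with 15 above 0 and 25 below, and that of all genes -0.02. Leaving out 1 library moved it between -0.34 (without CSO 4) and -0.08 (without chow 3), and it was also over 1.5 times smaller or larger without chow 2, chow 6 or CSO 6 (-0.09, -0.26 and -0.09).

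In OO against chow, edgeR called 0 of 40, against 2.64% of all genes. At an unadjusted p under 0.05 there were 1 higher (Col14a1) and 5 lower (Col4a2, Des, Ngfr, Sparc, Vim), against 16.1%. DESeq2 called Col4a2 and Des lower (5.74% of the 11945 genes to which it gave an adjusted p) and limma voom called 0 (0.969%). The median was -0.35, with 12 above 0 and 28 below, and that of all genes 0.07. With limma voom the median of the 40 genes was -0.97, and with library totals -0.51. Leaving out 1 library moved it between -0.57 (without OO 3) and -0.22 (without chow 3), and it was -0.23 without OO 2. Scaling by library totals moved the median of all genes by -0.186 in this comparison, by 0.156 in CSO against OO and by 0.128 in SFO against OO.

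In SFO against chow, edgeR called 0 of 40, against 0.835% of all genes, and at an unadjusted p under 0.05 there were 1 higher (Col1a1) and 1 lower (Lamc1), against 7.74%. DESeq2 and limma voom called 0 (1.57% of those 11945 genes and 1.02% of all genes). The median was 0.05, with 22 above 0 and 18 below, and that of all genes 0.01. Its sign depended on the libraries and settings used: it was -0.05 without SFO 6, 0.17 without chow 3, -0.05 without the 4 libraries with muscle transcripts and -0.06 with limma voom. For the mean of the 3 oils against chow, edgeR called 0 of 40 against 1.12%, with 0 higher and 3 lower (Des, Lamc1, Sparc) at an unadjusted p under 0.05, against 8.75%. DESeq2 called 0 (1.52%), and limma voom called Sparc lower (1.96%). The median was -0.24, with 14 above 0 and 26 below, and that of all genes 0.01. With limma voom it was -0.43.

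**Figure D4:**
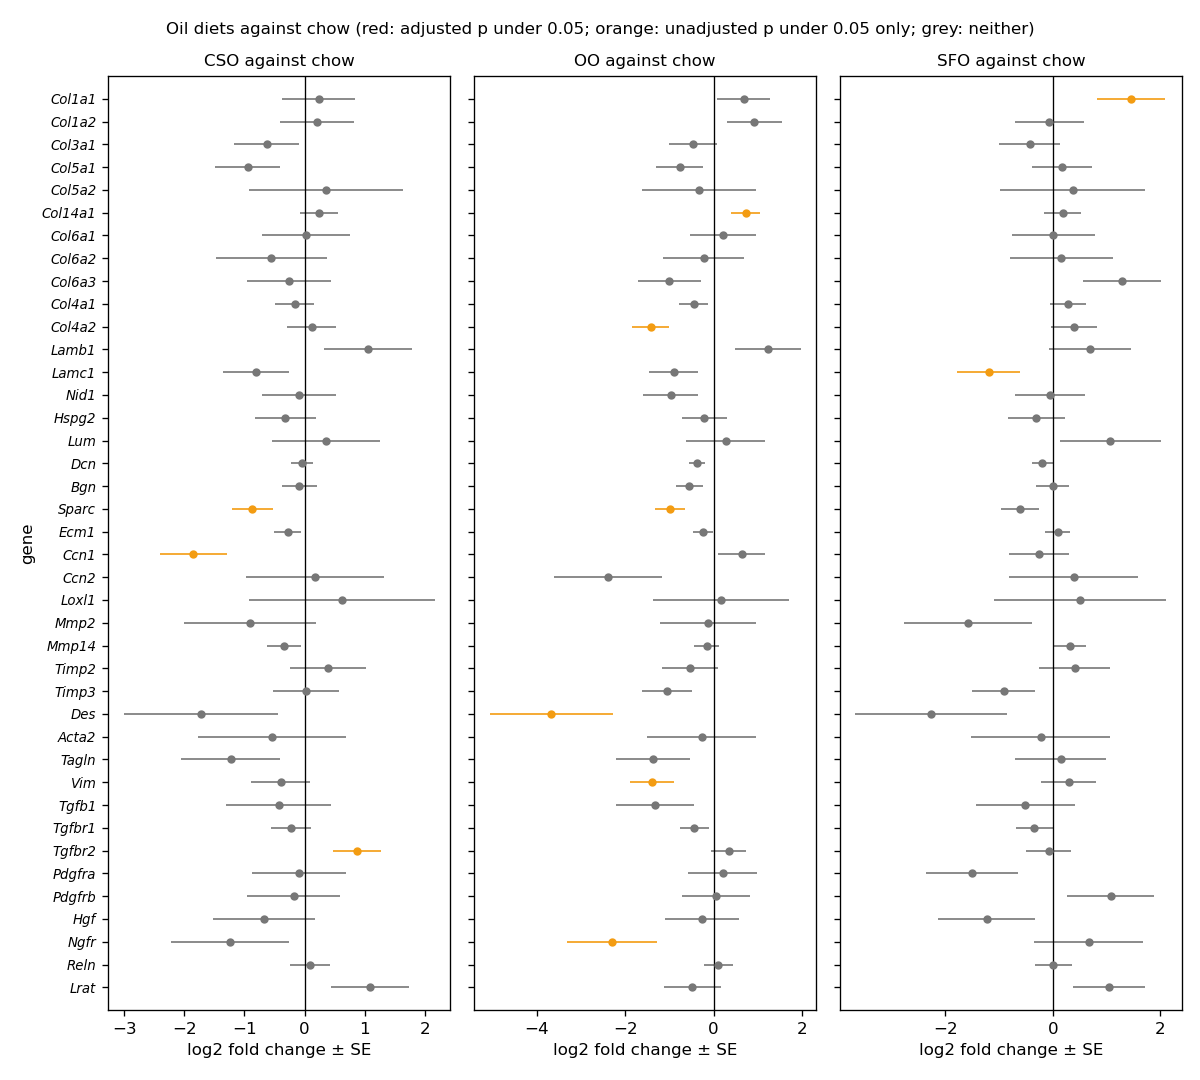
Log2 fold change with its SE (horizontal axis) of each of 40 genes (rows) in CSO, OO and SFO against chow, from the edgeR fit; orange marks an unadjusted p under 0.05, and red, which would mark an adjusted p under 0.05, does not occur. Des in OO, at -3.67 ± 1.40, is the farthest from 0.

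Between the oils, the set gave its 2 calls. In CSO against OO, edgeR called Ccn1 lower, 1 of 40 against 1.09% of all genes. At an unadjusted p under 0.05 there were 3 higher (Ccn2, Col4a2, Lrat) and 1 lower (Ccn1), against 14.7%. DESeq2 called Ccn1 lower and Col4a2 higher (3.46%), and limma voom called 0 (0.952%). The median was 0.10, with 22 above 0 and 18 below, and that of all genes -0.08. It was 0.30 with library totals and 0.60 with limma voom, and between 0.03 (without OO 2) and 0.34 (without OO 3) with 1 library left out. It also moved by over 1.5 times without CSO 3, CSO 4, OO 1 or OO 4 (0.06, 0.05, 0.20 and 0.26) and without CSO 1 (0.07).

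In SFO against OO, edgeR called Col4a2 higher, 1 of 40 against 1.06% of all genes. At an unadjusted p under 0.05 there were 7 higher and 0 lower, against 15.3% of all genes: Ccn2, Col4a1, Col4a2, Col6a3, Lrat, Ngfr and Vim. DESeq2 called Col4a2, Ngfr and Vim higher (3.68%), and limma voom called 0 (0.0752%). The median was 0.38, with 28 above 0 and 12 below, and that of all genes -0.04. It was 0.57 with limma voom and 0.24 without SFO 6. In CSO against SFO, edgeR called 0 of 40, against 0.493%, with 1 higher (Tgfbr2) and 3 lower (Ccn1, Col6a3, Mmp14) at an unadjusted p under 0.05, against 7.69%. There DESeq2 gave an adjusted p to 10 of the 40 and called 0 (3.64% of the 3848 genes it gave one), and limma voom called 0 (1.06%). The median was -0.03, as was that of all genes, and its sign turned with the library left out, from -0.34 without CSO 4 to 0.08 without SFO 6. The median SE of the 40 genes was 0.52 to 0.65 in the 7 comparisons.

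**Figure D5:**
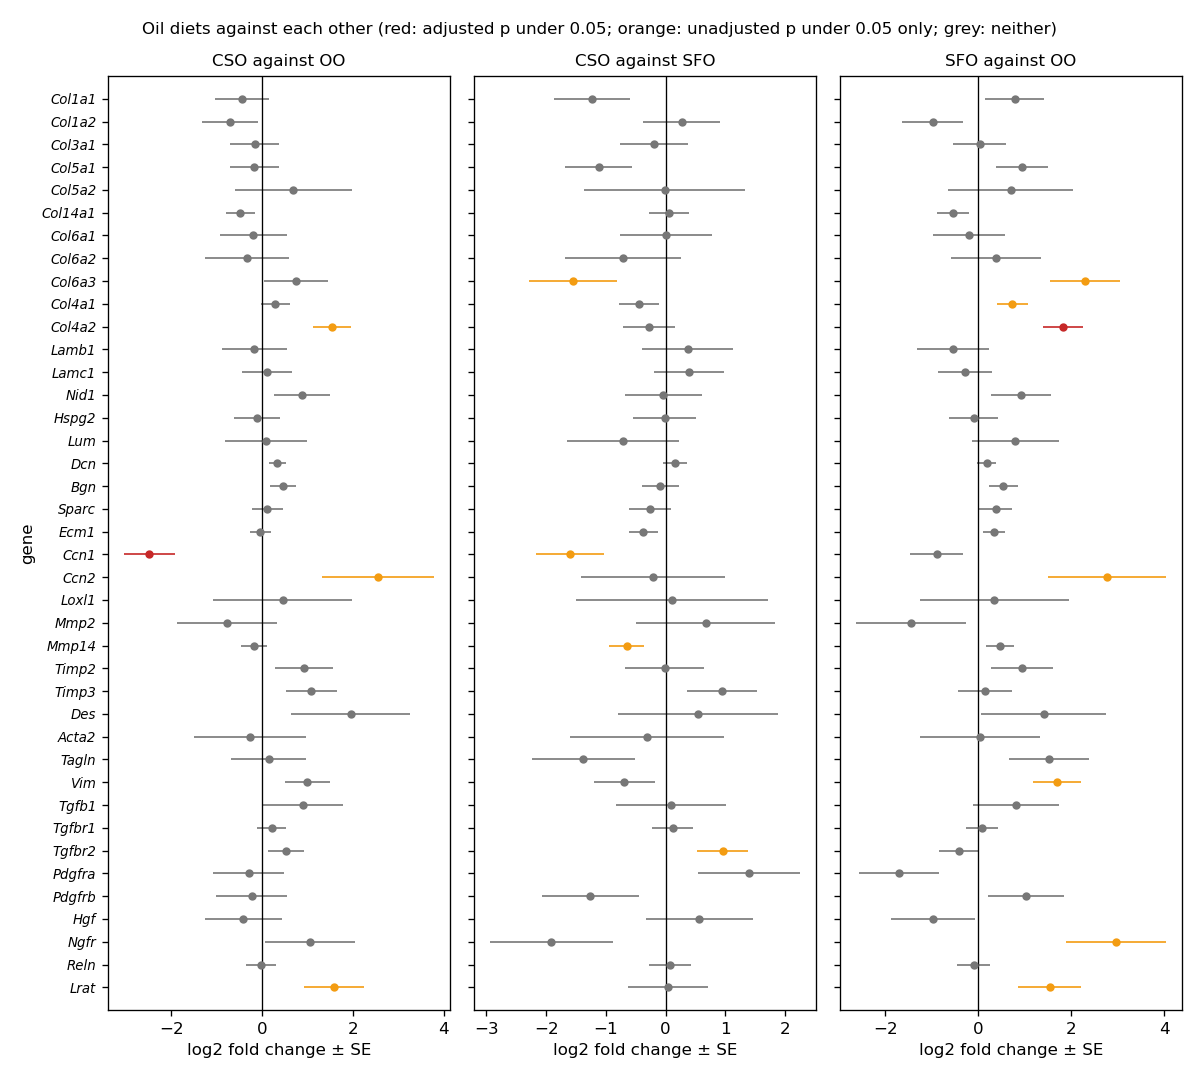
Log2 fold change with its SE (horizontal axis) of each of 40 genes (rows) between pairs of oil diets, from the edgeR fit; red marks an adjusted p under 0.05, orange an unadjusted p under 0.05 only. Red occurs for Ccn1 in CSO against OO and Col4a2 in SFO against OO, and all 7 coloured genes of SFO against OO are right of 0.

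Single libraries carried many of the extremes. Of the 40 genes, OO 3 was the highest library for 7, and CSO 4 and SFO 6 for 5 each. OO 2 was the lowest for 12, OO 6 for 9 and SFO 2 for 7, with a tie at 0 counts given to every library in it. The share of counts taken by the set was 0.120% ± 0.0171 (SD, n = 6) in chow, 0.103% ± 0.0203 (n = 6) in CSO, 0.0837% ± 0.0160 (n = 6) in OO and 0.112% ± 0.0197 (n = 5) in SFO. The lowest chow library, at 0.108%, was above 5 of the 6 OO libraries and OO 3, at 0.112%, was within the chow range. The 8 hepatocyte markers summed to 1.02e+05 to 1.37e+05 CPM in chow and 1.28e+05 to 1.71e+05 CPM in OO. Their part in the lower share was not tested.

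Markers of stellate cells outside the set gave 1 called gene of 13 tested. Of all genes, edgeR called 0.835% in SFO against chow, 1.06% in SFO against OO and 1.12% in the mean of the oils. Steap4, a metalloreductase that hepatocytes also express, rose in SFO against chow (2.15 ± 0.34, adjusted p = 0.000989, edgeR) and was higher in SFO than in OO (1.52 ± 0.34, adjusted p = 0.0311). Steap4 was also called in the mean of the oils against chow (1.23 ± 0.28, adjusted p = 0.0283). Without the muscle libraries these 3 differences were about as large and not called (2.06 ± 0.48, 1.53 ± 0.36 and 1.14 ± 0.41, adjusted p = 0.104, 0.0758 and 0.726). The other 12 were not called. The median of the 13 against chow was 0.30 in CSO, -0.68 in OO and 0.09 in SFO, with 5, 9 and 5 of 13 below 0. The quiescence marker Gfap was at 0 in 16 of 23 libraries. Other cell types of the liver were read from marker lists in the same way. Of all genes, 0.409%, 2.64% and 0.835% were called in CSO, OO and SFO against chow. The 12 Kupffer cell markers gave 0 calls in CSO, OO and SFO against chow, with medians of -0.14, 0.05 and 0.09. The 13 sinusoidal endothelial markers gave 0 calls too, with medians of -0.34, -0.12 and -0.28 and with 12, 11 and 9 of 13 below 0. In the mean of the oils all 13 were below 0, with a median of -0.43. Of 2 adipocyte markers tested, Fabp4, a fatty acid carrier, fell in OO against chow (-3.74 ± 0.99, adjusted p = 0.0312, edgeR), and was at -2.82 ± 1.198 (adjusted p = 0.416) without the muscle libraries. Portal fibroblast markers, 5 of which were tested, gave 0 calls, with medians of -0.91, -1.001 and -0.75 in CSO, OO and SFO and with 5, 4 and 4 of 5 below 0. The part of these cell types in the differences of the set was not tested. The 8 portal fibroblast markers with a row summed to 8.12 to 58.6 CPM in chow, 2.0002 to 24.8 in CSO, 3.13 to 41.7 in OO and 0.239 to 20.2 in SFO, with Thy1 at 0 in 11 libraries and Pi16 in 19.

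Among other genes of the matrix, a few rose in OO livers, where edgeR called 2.64% of all genes against chow (0.835% in SFO). Of 11 other collagen chains tested, Col18a1, which gives rise to endostatin and is also made by hepatocytes, rose in OO against chow (0.39 ± 0.10, adjusted p = 0.0284, edgeR) and the other 10 were not called. Fn1 (fibronectin), which hepatocytes secrete into plasma, rose in OO (0.91 ± 0.12, adjusted p = 1.09e-06) and in SFO (0.66 ± 0.12, adjusted p = 0.000913), and was the single called gene among 33 other matrix glycoproteins, proteoglycans and laminins in each of these comparisons. Of 20 genes of collagen processing, P4hb, a subunit of prolyl 4-hydroxylase and a disulfide isomerase, and Tgm2, a transglutaminase, rose in OO (0.42 ± 0.12 and 0.78 ± 0.20). Of 35 other genes of TGF-beta signalling, Id2 and Itgb5 rose and Smad4 fell in OO (0.74 ± 0.21, 0.96 ± 0.25 and -1.02 ± 0.29), and none was called in CSO or SFO against chow. The 17 genes of PDGF, HGF and CCN-YAP signalling tested, Yap1 and the Tead genes among the list, gave 0 calls against chow in any diet. Of these calls against chow, that of Fn1 in OO held without the muscle libraries, with 3 chow libraries left (0.79 ± 0.14, adjusted p = 0.00313). Without these libraries the calls over all genes in OO against chow went from 316 to 26. Fn1 in SFO was then at 0.55 ± 0.15 (adjusted p = 0.122), and Col18a1, P4hb, Tgm2, Id2, Itgb5 and Smad4 in OO were at 0.31, 0.47, 0.66, 0.73, 0.82 and -0.79 (adjusted p = 0.217 to 0.457). Between the oils, Fn1, Tgm2 and Id2 were lower in CSO than in OO (-0.47, -0.85 and -0.89, with 1.09% of all genes called). Tnc, at 0 in 12 libraries, was higher in SFO than in OO (8.91 ± 2.18, adjusted p = 0.0324, edgeR, with 1.06% called). Of 13 genes of matrix breakdown tested, Ctsl was lower in CSO than in SFO (-0.60, adjusted p = 0.0284, edgeR, with 0.493% called). Without the muscle libraries only Tnc of these was called (8.85, adjusted p = 0.0487, edgeR).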

How the data were processed

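Liver RNA was sequenced as QuantSeq 3′ libraries from total RNA, per the labels' protocols. Per the submitters' processing notes, reads were handled with Trimmomatic, STAR 2.7.1a and HTSeq 0.9.1 on mm39, and DESeq2 and DESeq are listed; neither their roles nor the strand setting is stated there. The table of whole-number read counts per gene deposited by the authors was the input. The authors' deposited comparison tables hold, per the file headers, a mean signal, log2 fold changes, a test score, p-values and adjusted p-values.

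Counts were fitted with edgeR 4.0.16 (R 4.3.3; filterByExpr, TMM, robust quasi-likelihood, all 4 diets in 1 fit), with Benjamini-Hochberg adjustment over all tested genes of a comparison and a threshold of 0.05. Called means past that threshold. The SE of an edgeR estimate, in text and figures, was derived from the test: the absolute log2 difference divided by the square root of its F statistic. CPM uses TMM-scaled totals. DESeq2 1.42.0 and limma 3.58.1 (voom) were alternatives, with 2 other scalings, 2 other filters, fits of only the diets compared, a replicate block, a fold threshold, each library left out in turn, and the 4 libraries with Acta1 over 100 CPM left out. The scripts were tested on simulated counts.

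Values were given for called genes, and for the gene of highest mean CPM and that of smallest p in each role group; others named with values were chosen after their values were seen. The genes and marker lists were chosen with earlier results of these data known. Promoters are from RefSeq (GRCm38.p6), where 30 of 42 symbols matched. In GENCODE M21, the last 1000 bases of Ecm1 overlap another gene on the same strand, and those of Des and Tagln one on the opposite strand, so reads there could be split. Intervals were not computed for single libraries. Figures were drawn with matplotlib 3.10.9.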

Additional observations from a re-analysis of the deposited data

Results flagged for a closer look

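In 13 genes named by rule, 52 groups of libraries were checked for a single value far from the rest of its diet (Dixon's ratio on log2 CPM). Chance flags about 1 in 20 such groups, and 6 were flagged. Ccn1 was at 4.42 CPM in OO 6, against 31.3 to 95.1 CPM in the other OO libraries. Col14a1 was at 158 CPM in OO 3, against 40.3 to 61.2 CPM in the other OO libraries, and at 24.6 CPM in SFO 1, against 47.4 to 53.8 CPM in the other SFO libraries. Col1a1 was at 1.56 CPM in SFO 2, against 19.6 to 38.7 CPM. Col4a1 was at 71.8 CPM in chow 3, against 28.8 to 38.2 CPM, and Tgfbr1 was at 28.8 CPM in SFO 6, against 43.0 to 49.5 CPM.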

How the results depend on the processing

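No difference changed direction under any alternative among the genes with an unadjusted p under 0.05. Of the settings tried for single genes, 587 kept the side of the threshold, 22 passed it and 10 lost it, with 6 more to which DESeq2 gave no adjusted p left out. Counts of called genes stayed within 1.5 times in 132 settings and moved in 29. These tallies are mostly uncalled genes that stayed uncalled and counts of 0 that stayed at 0. The call of Ccn1 in CSO against OO was kept in 9 of 12 fits with a library left out and in 7 of 9 other settings. That of Col4a2 in SFO against OO was kept in 9 of 11 and in 6 of 9. The count for CSO against chow was 0, and 2 with limma voom and with only the 2 diets fitted (Ccn1 and Sparc). For OO against chow it was 0, and 1 with library totals, 2 with DESeq2, 1 with the replicate block and 0 to 1 with a library left out (1 without OO 4, OO 5 or OO 6). For the mean of the oils it was 0, and 1 with limma voom. For CSO against OO it was 1, and 2 with library totals, DESeq2 or the replicate block, 0 with limma voom (Ccn1 -1.83, adjusted p = 0.0903) or without the muscle libraries, and 0 to 2 with a library left out (0 without CSO 1, CSO 5 or CSO 6; 2 without OO 4, OO 5 or OO 6). For SFO against OO it was 1, and 3 with DESeq2, 0 with limma voom (Col4a2 1.64, adjusted p = 0.356), without the muscle libraries or with only the 2 diets fitted, and 0 to 2 with a library left out (0 without OO 2 or SFO 5; 2 without OO 3, OO 5 or OO 6). Over the alternatives the adjusted p of Ccn1 in CSO against OO was 0.00125 to 0.1002, and that of Col4a2 in SFO against OO 0.00302 to 0.356. The cause was not tested. Counts for SFO against chow and CSO against SFO stayed at 0.

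Replicate numbers did not pair the libraries: deviations from the group mean correlated at -0.101 to 0.0346 over 33 same-numbered pairs (median 0.000562), and 1 of 23 libraries correlated best with its own number. With the replicate block, Col4a2 was called in OO against chow (-1.71, adjusted p = 0.0292) and in CSO against OO (1.72, adjusted p = 0.0309). The median log2 difference of the set with the block was -0.63 in OO against chow (8 above 0 and 32 below), -0.37 in the mean of the oils against chow, 0.35 in CSO against OO, 0.62 in SFO against OO and -0.15 in CSO against SFO. The block moved the median of all genes by -0.115, -0.036, 0.135, 0.081 and 0.051 in these comparisons, in that order. In the library with the fewest, 1 CPM stood for 5.28 counts.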
